A study of Rattus norvegicus with 12 samples.

Results

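The granins and the enzymes that process prohormones are described here as 10 rat genes, chosen by symbol: Chga, Chgb, Scg2, Scg3, Scg5 and Vgf for the granins, Pcsk1 and Pcsk2 for the convertases, and Cpe and Pam for the enzymes that trim and amidate peptides. On the array they were represented by 17 of 41012 probes, and by 10 of 33212 gene names. The cells were PC12, a line from a rat adrenal pheochromocytoma, grown with foetal bovine and horse serum on collagen. PACAP38, a neuropeptide of the secretin and glucagon family, was given at 1e-07 M for 5, 10, 15, 30, 60 or 120 min, and every time point had its own control. For each time point RNA was pooled (n = 6) from treated and from control cells, and both pools were hybridized together on 2 arrays with Cy3 and Cy5 exchanged. Since the swapped arrays repeat the same RNA, a time point counts as 1 replicate. Both of its values are printed as the only sign of error, and a single time point allows no test. The model is 1 cell line in culture and the pools leave out the spread between cultures.

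Granins are acidic proteins that are packed into dense-core vesicles together with peptide hormones and catecholamines, and several of them are themselves cut into active peptides. Convertases cleave prohormones in the vesicle after pairs of basic residues, a carboxypeptidase then removes these residues from the new end, and an amidating enzyme finishes peptides that end in glycine. In chromaffin cells and in PC12 cells PACAP binds the receptor PAC1, which raises cyclic AMP, and the transcription factor CREB acts downstream of cyclic AMP at the cyclic AMP response element, whose sequence is TGACGTCA.

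This element was searched in the 250 bases before the start of each gene in RefSeq (build GRCr8), where 8 of the 10 genes had a sequence. Chga and Pcsk1 had none. The 8-base element reads the same on both strands. It was present before Vgf, where it began 90 bases before the start, and before Scg2, where it began 123 bases before it, and before 1.59% of all 33469 promoters. The shorter core TGACG, or its reverse complement CGTCA, lies inside the full element and was counted there too. It was present in 7 of the 8 promoters, all but that of Chgb, and in 18.2% of all promoters. The upstream sequences of the 4 genes that passed a fold rule below are shown for this reason, with every match to the element or its core in capitals. The windows are chr12:25277021-25277270 for Vgf, chr9:88256867-88257116 for Scg2 and chr8:85322485-85322734 for Scg3, all on the minus strand, and chr9:105570118-105570367 on the plus strand for Pam.
Vgf: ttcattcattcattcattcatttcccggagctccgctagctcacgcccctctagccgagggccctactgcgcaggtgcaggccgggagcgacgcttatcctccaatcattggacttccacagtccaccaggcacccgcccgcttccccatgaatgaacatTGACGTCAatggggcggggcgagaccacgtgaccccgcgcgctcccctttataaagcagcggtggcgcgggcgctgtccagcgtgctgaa
Scg2: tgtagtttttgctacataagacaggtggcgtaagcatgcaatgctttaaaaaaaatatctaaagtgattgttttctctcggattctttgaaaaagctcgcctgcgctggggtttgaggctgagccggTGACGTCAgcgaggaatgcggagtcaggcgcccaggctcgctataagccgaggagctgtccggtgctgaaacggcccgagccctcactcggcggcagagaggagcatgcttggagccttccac
Scg3: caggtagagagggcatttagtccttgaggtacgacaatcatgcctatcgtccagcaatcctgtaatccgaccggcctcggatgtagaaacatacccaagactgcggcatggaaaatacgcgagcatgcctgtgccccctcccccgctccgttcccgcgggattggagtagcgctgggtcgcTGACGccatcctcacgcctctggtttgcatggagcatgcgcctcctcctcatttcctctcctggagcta
Pam: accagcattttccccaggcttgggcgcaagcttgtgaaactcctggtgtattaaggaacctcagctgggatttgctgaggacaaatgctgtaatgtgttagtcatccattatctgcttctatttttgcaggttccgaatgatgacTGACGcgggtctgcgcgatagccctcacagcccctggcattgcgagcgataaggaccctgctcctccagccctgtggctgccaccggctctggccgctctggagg
Scg3 and Pam hold the core alone, as do Scg5, Pcsk2 and Cpe. A match is a description of the letters, and binding was not measured here.

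Of the 17 probes, 12 were well above background in both RNAs on all 12 arrays, and they stand for 8 genes. The remaining 5, which are both probes of Pcsk1 and all 3 probes of Pcsk2, were well above background in neither RNA on any array, so no fold is given for these convertases. Pcsk1 encodes PC1/3 and Pcsk2 encodes PC2. Each array holds 45018 spots, control spots included. Of the spots that are not control spots, 38.4 to 49.6% passed Agilent's test for signal well above background with control RNA. With PACAP38 RNA 39.8 to 48.9% of them passed. None of these spots was saturated. The number of arrays limits the precision. The chromaffin-type markers Th, Dbh, Ddc, Slc18a1 and Ngfr were well above background in the control on 12 of 12 arrays. Their mean folds at 120 min were 1.81 for Th, 2.36 for Dbh, 1.16 for Slc18a1, 0.901 for Ddc and 0.836 for Ngfr. With PACAP38 in Cy5 and then in Cy3 the arrays gave 2.15 and 1.52 for Th and 3.03 and 1.83 for Dbh. They gave 1.09 and 1.23 for Slc18a1, 0.966 and 0.841 for Ddc and 1.02 and 0.689 for Ngfr. When Agilent's background subtraction and dye normalization were replaced by normexp background correction, the fold of Dbh was 1.82 with loess and 1.58 with median centring. The adrenaline-synthesizing enzyme Pnmt had no probe under this symbol. Of 13 markers of fibroblasts, glia, macrophages, hepatocytes and adrenal cortex, 8 were above background in the control on no array and 2, Col1a1 and Cd68, on all 12. The summed signal of the 13 was 331 to 366 in the control pools and 358 to 498 in the PACAP38 pools, highest at 120 min, where the fold of Cd68 was 1.97 and 1.91, with a mean of 1.94 against 1.27 with normexp and loess and 1.19 with median centring. The part of this in the folds given here was not tested. The early response genes Egr1 and Nr4a1 had mean folds of 15.3 and 2.71 at 10 min. Their arrays gave 20.9 and 11.2 for Egr1 and 2.97 and 2.46 for Nr4a1. The mean folds were 6.57 and 1.86 with normexp and loess, and 6.98 and 1.96 with median centring.

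Vgf was higher in the PACAP38 pools at 60 and 120 min. It encodes a secreted precursor that is cut into neuropeptides. Folds below are given with PACAP38 in Cy5 first and in Cy3 second. They were 0.932 and 1.02 after 5 min, 1.16 and 0.956 after 10 min, 1.09 and 1.02 after 15 min and 1.28 and 1.26 after 30 min. The 60 min arrays gave 2.75 and 2.67, and the 120 min arrays 4.52 and 3.43. Every array of 60 and 120 min lay above every array of the earlier time points, while up to 15 min the arrays lay on both sides of 1. The spot p-value of Agilent's software at 120 min was 2.89e-14 and 1.07e-11, which describes pixel and background error on 1 array and not the spread between pools. The probe lies at base 2573 of its transcript (chr12:20906265-20906324, plus strand, rn4).

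The control level of Vgf, after quantile normalization of all channels, was 5519 at the lowest, 8301 at the median and 11375 at the highest of the 12 arrays. In the PACAP38 channel it was 29968 and 22416 after 60 min and 32481 and 23945 after 120 min. The Vgf control and PACAP38 levels did not overlap at these 2 time points. In pooled RNA, a higher level per cell and a larger share of cells with the transcript cannot be told apart.

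**Figure D1:**
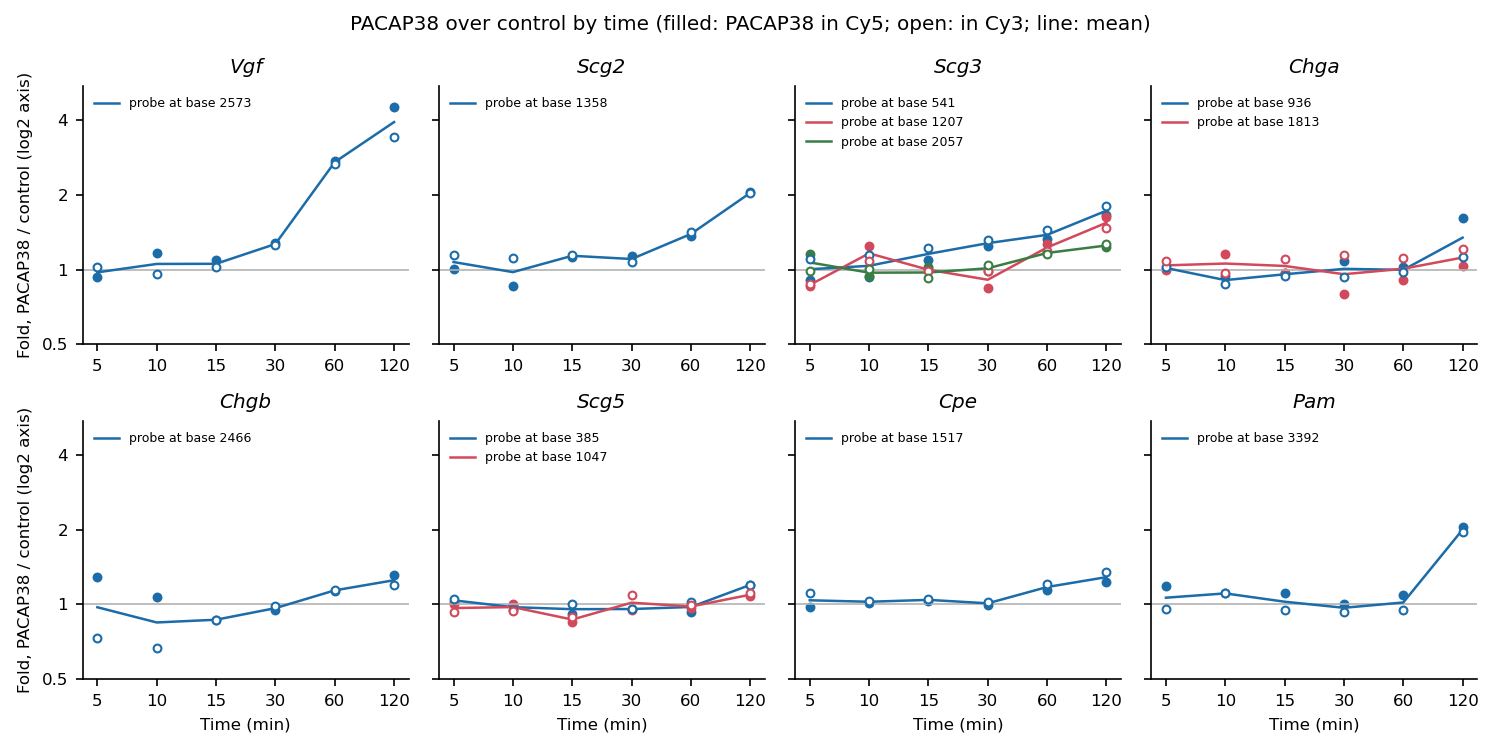
Fold of PACAP38 over control (log2 axis) against time in minutes for the 8 measured genes, with 1 colour per probe and the probe's first base in its transcript in the legend. Filled points are arrays with PACAP38 in Cy5, open points those with PACAP38 in Cy3, and lines join the geometric means; Vgf reached 3.93-fold at 120 min, and Scg2 and Pam about 2-fold.

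Scg2 was higher at 120 min. It encodes secretogranin II, the precursor of secretoneurin. Its folds were 1.00 and 1.15 after 5 min, 0.860 and 1.11 after 10 min, 1.13 and 1.15 after 15 min and 1.13 and 1.07 after 30 min. The 60 min arrays gave 1.36 and 1.42, and the 120 min arrays 2.05 and 2.03. Both arrays at 60 min lay above all 8 earlier arrays, and both at 120 min above those at 60 min. The control level of Scg2 was 7715 at the lowest, 9055 at the median and 12753 at the highest, and its PACAP38 level at 120 min was 18409 and 16839.
The Scg2 probe starts at base 1358 of the transcript (chr9:78763534-78763593, minus strand, rn4) and is shown because this value rests on it alone.
Scg2 probe: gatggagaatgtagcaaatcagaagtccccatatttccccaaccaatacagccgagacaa

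Pam encodes peptidylglycine alpha-amidating monooxygenase, which makes the amide end that PACAP38 itself and many other neuropeptides carry. Its fold was 1.18 and 0.958 after 5 min, 1.11 and 1.11 after 10 min, 1.11 and 0.947 after 15 min, 1.00 and 0.936 after 30 min and 1.09 and 0.954 after 60 min. On the 120 min arrays it was 2.05 and 1.96. Pam thus lay between 0.936 and 1.18 on all 10 arrays up to 60 min and stood apart only on the 2 arrays of 120 min. Its level at 120 min was 12939 and 12572 with PACAP38, against 5642 to 7639 over all control channels. The probe lies at base 3392 of its transcript (chr9:97047146-97047205, plus strand, rn4).

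**Figure D2:**
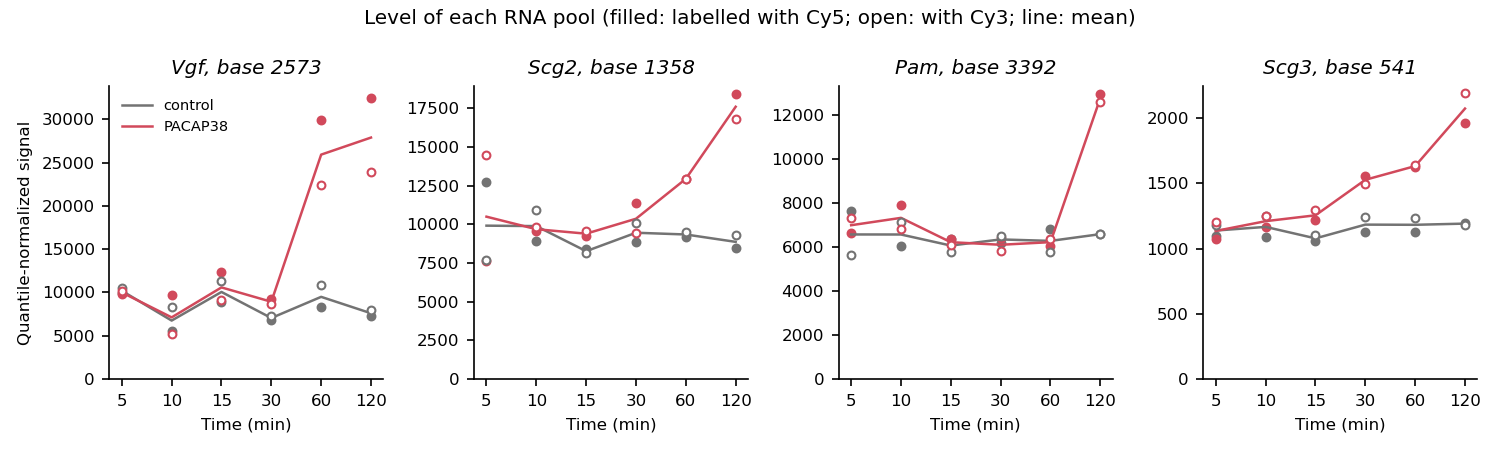
Quantile-normalized signal against time in minutes for 1 probe each of Vgf, Scg2, Pam and Scg3, in the control pools (grey) and the PACAP38 pools (red). Filled points are channels labelled with Cy5 and open points those labelled with Cy3; the control levels of Vgf stay between 5519 and 11375 while its PACAP38 level reaches 32481.

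Scg3 encodes secretogranin III, which binds chromogranin A in the vesicle. Its 3 probes differed. The probe at base 541 gave folds of 0.910 and 1.11 after 5 min, 0.936 and 1.15 after 10 min, 1.09 and 1.22 after 15 min and 1.24 and 1.31 after 30 min. It gave 1.32 and 1.44 after 60 min and 1.65 and 1.8 after 120 min. The probe at base 1207 gave 1.27 and 1.19 after 60 min and 1.62 and 1.47 after 120 min. The probe at base 2057, the brightest and therefore the value of the gene, gave 1.17 and 1.16 after 60 min and 1.23 and 1.27 after 120 min. At 120 min both arrays lay above 1 with every Scg3 probe, and the arrays of the brightest probe lay below those of the other two. The control level at base 541 was 1055 to 1251 over the 12 arrays, and the PACAP38 level at 120 min was 1963 and 2189. The 2 probes nearer the start (chr8:80512339-80512398 and chr8:80496358-80496417, minus strand, rn4) are shown because the size of the Scg3 value depends on which probe is read.
Scg3 probe at base 541: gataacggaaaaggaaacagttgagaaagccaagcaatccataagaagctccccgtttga
Scg3 probe at base 1207: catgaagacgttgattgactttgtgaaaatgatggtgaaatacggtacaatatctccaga

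Chga and Scg5 showed the same order of probes at 120 min. Chga encodes chromogranin A, the granin from which catestatin and pancreastatin are cut, and Scg5 encodes 7B2, the chaperone of the convertase PC2. The Chga probe at base 936 gave 1.61 and 1.12 and the one at base 1813 gave 1.03 and 1.21, so their arrays overlapped. The Scg5 probe at base 385 gave 1.2 and 1.2 and the one at base 1047 gave 1.08 and 1.11. This order is common on these arrays: of 1563 RefSeq accessions with at least 2 measured probes 100 or more bases apart, 1146 (73.3%) had the higher fold at the probe nearer the start, with a median difference of 0.13 on the log2 scale. The 3 of 3 among the granins are read against that share.

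**Figure D3:**
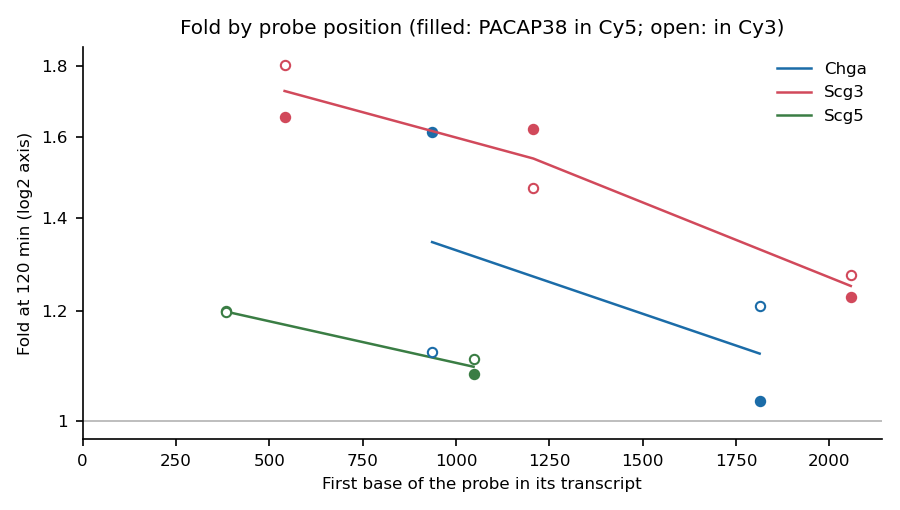
Fold of PACAP38 over control at 120 min (log2 axis) against the first base of the probe in its transcript, for the 3 genes with several measured probes. Filled points have PACAP38 in Cy5, open points in Cy3, and lines join the means; for Scg3 the mean was 1.73 at base 541 and 1.25 at base 2057.

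By their brightest probes at 120 min, Chga, Chgb, Scg5 and Cpe stayed closer to the control than Vgf, Scg2 and Pam. Their mean folds were 1.35 for Chga, 1.29 for Cpe, 1.25 for Chgb and 1.09 for Scg5, against 1.25 for Scg3. Up to 60 min the brightest Chga probe lay between 0.871 and 1.08 on every array, and its 120 min folds of 1.61 and 1.12 differed by 0.53 on the log2 scale, the widest gap between the arrays of any measured member probe at 120 min. The brightest Scg5 probe lay between 0.848 and 1.11 on all 12 arrays. Cpe encodes carboxypeptidase E, which removes the basic residues that the convertases leave. Its fold was between 0.973 and 1.11 on the 8 arrays up to 30 min, 1.15 and 1.21 after 60 min and 1.23 and 1.35 after 120 min, so that all 4 late arrays lay above all early ones.

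Chgb, which encodes chromogranin B, gave folds of 1.29 and 0.733 after 5 min, 1.07 and 0.669 after 10 min, 0.866 and 0.869 after 15 min and 0.948 and 0.985 after 30 min. The 60 min arrays gave 1.13 and 1.15, and the 120 min arrays 1.31 and 1.2. At 5 and 10 min the dye-exchanged arrays thus fell on opposite sides of 1. The Chgb control level ranged from 2299 to 55130 between arrays, a standard deviation of 1.06 on the log2 scale over the 12 arrays, and the second Chga probe had the same standard deviation of 1.06. The Chgb spot lies in row 530 of the 532 rows of the array and the Chga spot in row 516. Over all probes above background, the median standard deviation was 0.187 in rows 1 to 500, 0.301 in rows 501 to 520 and 0.597 in rows 521 to 532, which hold 116 such probes. The part of the position in the levels of Chgb was not tested. Its folds are taken within an array, and a slope of its levels over time rests on values with this spread.

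**Figure D4:**
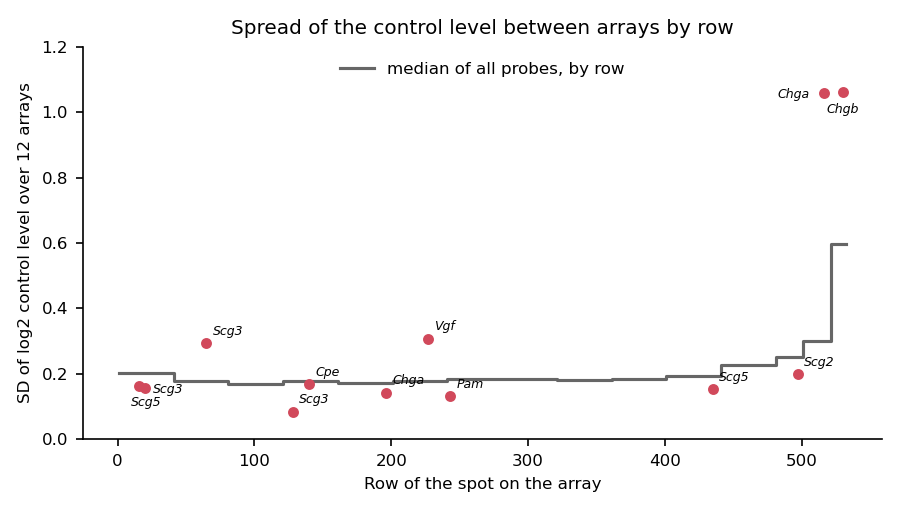
Standard deviation of the log2 control level over the 12 arrays against the row of the spot on the array; the grey line is the median of all probes well above background in the control, by row, and red points are the 12 measured granin and enzyme probes. The Chgb and second Chga probes stand at 1.06, above the other 10, which lie between 0.084 and 0.308.

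A first rule required that each of the swapped arrays show a 2-fold difference the same way, with a spot p-value below 0.01. Among the 17 probes 0 were counted up to 30 min, where 0, 0.0659, 0.0902 and 0.249% of all probes were higher and 0, 0, 0.0268 and 0.102% lower from 5 to 30 min. The 60 min arrays counted 1 as higher, that of Vgf, where 0.871% of 41006 probes were higher and 0.376% lower. The 120 min arrays counted 2, Vgf and Scg2, against 1.95% of 40997 probes. With normexp and loess Scg2 was not counted at 120 min, its folds being 1.94 and 2.09, where 0.717% of all probes were higher. With normexp and median centring neither Scg2 at 120 min (2.34 and 1.33) nor Vgf at 60 min (4.56 and 1.76) was counted. With that scaling 0.437% of all probes were higher at 120 min and 0.266% at 60 min. None was counted as lower, where 1.53% of all probes were lower after 120 min. Pam passed 2-fold on 1 array and gave 1.96 on the other.

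The second rule asked for at least 1.5-fold on both arrays with both RNAs well above background, so that changes smaller than 2-fold were counted too. Up to 30 min 0 of 12 member probes passed it, where 0.0134, 0.196, 0.302 and 0.994% of all probes did as higher and 0.0067, 0.0458, 0.328 and 0.386% as lower. At 60 min 1 of 12, that of Vgf, passed it as higher, where 2.9% of 17143 probes did, and 0 as lower, against 2.55%. At 120 min 4 of 12 passed as higher, those of Vgf, Scg2, Pam and the Scg3 probe at base 541, against 6.65% of 15720 probes, and 0 as lower, against 9.51%. The 12 probes belong to 8 genes, so the 3 Scg3 probes are not independent. With normexp and loess the same 4 probes passed as higher at 120 min, against 3.54% of all probes. With normexp background correction and median centring in place of Agilent's normalization 1 of 12 passed as higher, that of Vgf, against 1.82%.

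Over the 12 measured probes the median fold was 1.03, 1.00, 1.01 and 1.01 at the 4 early time points. It reached 1.15 after 60 min and 1.32 after 120 min, while the median over all measured probes was 0.984 and 0.985. At 120 min both arrays lay above 1 for 12 of 12 member probes and for 33.9% of all measured probes. With median centring both arrays lay above 1 for 4 of the 12 at 120 min, and the mean of both arrays fell below 1 for 3, which are both Scg5 probes and the second Chga probe. That scaling also moved the median of all measured probes at 120 min from -0.02 to -0.15 on the log2 scale, and the difference of the member median from it was 0.29 there against 0.42 with Agilent's normalization. It removes no dye effect that depends on signal, and the median gap between the swapped arrays of a member probe was 0.83 with it and 0.13 without it. In order of the fold of the brightest probe at 120 min, Vgf at 3.93 came first, then Scg2 at 2.04 and Pam at 2.0, whose arrays overlapped, and then Chga at 1.35, Cpe at 1.29, Chgb and Scg3 at 1.25 and Scg5 at 1.09, of which Chga, Cpe, Chgb and Scg3 overlapped.

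**Figure D5:**
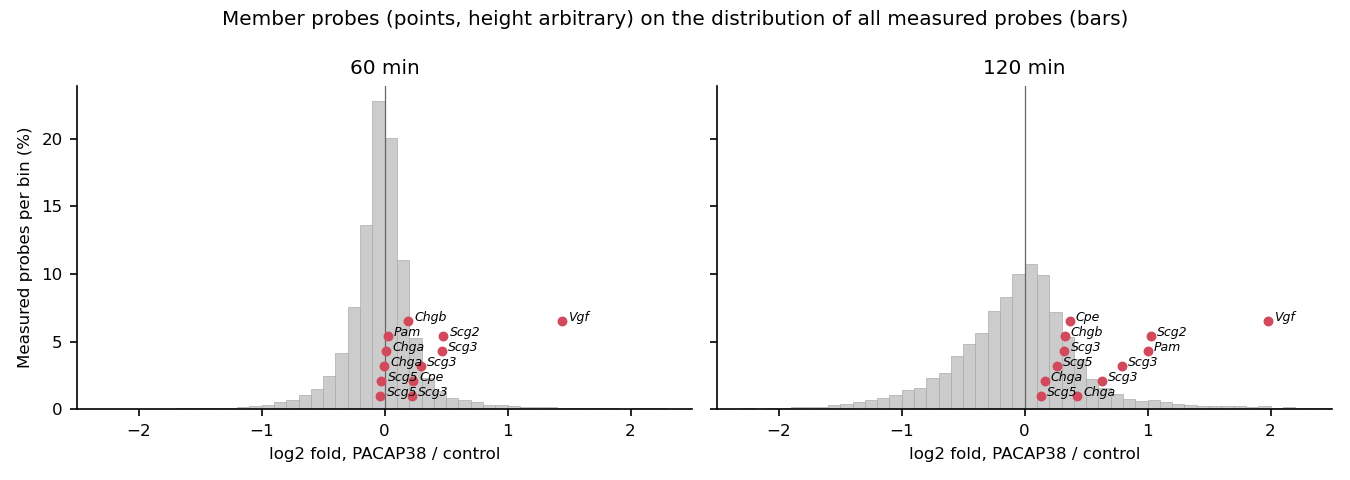
Distribution of the log2 fold of PACAP38 over control at 60 and 120 min over all measured probes (grey bars, percent of probes per bin), with the 12 granin and enzyme probes as red points whose height has no meaning. At 120 min all 12 points lie above 0, with Vgf at 1.98, Scg2 at 1.03 and Pam at 1.0.

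The 6 time points allow 1 kind of test, a slope over time, fitted with limma across 18658 probes. A slope is a change of the log2 fold per doubling of the time, and a probe entered if it had a value on every array and 1 of its channels stood well above background on the swapped arrays of some time point. Of these, 173 (0.927%) rose and 71 (0.381%) fell at an adjusted p below 0.05, and no member probe was among them. The slope was 0.46 for Vgf (SE 0.078, n = 6 time points, limma adjusted p = 0.0537), 0.17 for the Scg3 probe at base 541 (SE 0.027, limma adjusted p = 0.0502) and 0.20 for Scg2 (SE 0.052, limma adjusted p = 0.0821). For Pam it was 0.14 (SE 0.078, limma adjusted p = 0.279). Without 120 min the slope was -0.03 for Pam (limma adjusted p = 0.680), 0.11 for Scg2 (limma adjusted p = 0.375) and 0.38 for Vgf (limma adjusted p = 0.259). All 12 slopes were above 0, as were 45.4% over all probes. Without 120 min 9 of 12 were above 0, against 45.3% of all probes. Those of Pam, the second Chga probe and the Scg5 probe at base 385 were then below 0. With normexp and median centring 8 of 12 were above 0, against 24.6% of all probes. With Agilent's normalization and all 6 time points an unadjusted p below 0.05 was found for 5 of 12, and for 5761 (30.9%) of the 18658 probes. With time in minutes in place of its logarithm, 8 of the 12 passed as rising, where 11.8% of all probes did, and 0 as falling, against 18.2%. These were 1 or more probes of every measured gene except Scg5.

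The arrays of 5 and 10 min, of 15 and 30 min, and of 60 and 120 min shared a slide each. With the slide as a block no probe passed by limma, 848 having an unadjusted p below 0.05, and the slope of Vgf was 0.30 (limma adjusted p = 0.890). With 6 time points on 3 slides this fit rests on few values, so a probe that did not pass is not shown to be unchanged. Within the slide of 60 and 120 min, the log2 fold of Pam was higher at 120 min by 0.91 and 1.04 on the 2 dye orientations. The same difference was 0.72 and 0.36 for Vgf, 0.59 and 0.51 for Scg2 and 0.32 and 0.33 for the Scg3 probe at base 541.

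The slopes were also fitted to each RNA alone. In the control pools 0 of 18658 probes, members included, had a slope of the level at an adjusted p below 0.05 by limma, while 3425 probes and 5 of the 12 member probes had an unadjusted p below 0.05. In the PACAP38 pools 646 probes (3.46%) rose, among them 2 member probes, and 629 (3.37%) fell, among them 0 member probes. They were the Scg3 probe at base 541, with a slope of 0.19 (SE 0.032, limma adjusted p = 0.0429), and Chgb, with 0.42 (SE 0.071, limma adjusted p = 0.0429). The Chgb value comes from the spot in row 530, whose control level had a standard deviation of 1.06 between arrays, and its control level had a slope of 0.32 (limma adjusted p = 0.170). The control level of the Scg3 probe had a slope of 0.02 (limma adjusted p = 0.695). With the slide as a block 0 of the 18658 probes passed by limma, 1246 having an unadjusted p below 0.05, and the adjusted p was 0.722 for Chgb and 0.707 for the Scg3 probe. This block fit has the same limit as that of the fold. Neither of these 2 probes passed when 5, 10, 15, 60 or 120 min was left out, with limma adjusted p between 0.0542 and 0.197 for Chgb and between 0.0597 and 0.193 for Scg3.

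Other genes of prohormone processing and of dense-core vesicles were read from a list of 32 genes with 47 probes, of which 20 were measured on all 12 arrays by their brightest probe and 5 were never above background. None passed either rule before 120 min. At 120 min 2 of 47 probes passed the first rule, against 1.95% of all probes, and 3 of 27 the second, against 6.65%, all as higher. They belong to 2 genes. With normexp and loess 1 probe, of Nucb1, passed the first rule and 2, of Nucb1 and Ptprn, the second, against 0.717 and 3.54% of all probes. With median centring 0 passed the first and 1, of Nucb1, the second as higher, against 0.437 and 1.82%, and 1 probe of Qpctl passed the second as lower (0.526 and 0.724 with Agilent's normalization). Ptprn encodes IA-2, a membrane protein of dense-core vesicles, and its folds were 1.18 and 0.922 after 60 min and 3.25 and 2.17 after 120 min. Nucb1 encodes the calcium-binding protein nucleobindin 1, and 1 probe gave 1.57 and 1.39 after 60 min and 3.07 and 3.61 after 120 min, while its brighter probe gave 2.47 and 1.51 at 120 min. With Agilent's normalization these values at 120 min lay above those given for 60 min. The mean fold of the dimmer Nucb1 probe at 120 min was 3.33, against 2.05 with normexp and loess and 1.81 with median centring. In the same order it was 1.93, 1.43 and 1.28 for the brighter Nucb1 probe and 2.65, 2.13 and 1.84 for Ptprn. The median fold over the 27 measured probes of the list was 1.17 at 120 min. Both arrays at 120 min lay above 1 for 17 of them and below 1 for 7, against 33.9% and 40.2% of all measured probes. By the slope of the fold 0 of its 28 fitted probes passed in either direction with limma, 10 having an unadjusted p below 0.05, as had 30.9% of all probes. With time in minutes 8 of the 28 passed as rising, against 11.8% of all probes, and 3 as falling, against 18.2%.

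The genes whose 6 mean log2 folds lay nearest to those of a counted member, by Euclidean distance among 13939 probes measured on all arrays, were read as a description of the time course. Nearest to Vgf were Usp2 (distance 0.169, 2.76-fold at 60 min and 4.0-fold at 120 min), Ripply2 (0.319) and Pithd1 (0.334). Nearest to Scg2 were Glrx (0.159), Selenot (0.162) and Tmem30a (0.167), with 1.96-fold to 2.24-fold at 120 min. Nearest to Pam were Magi3 (0.147), Mical2 (0.156) and Wrnip1 (0.163), which were 0.944-fold to 0.982-fold at 60 min and 1.90-fold to 1.99-fold at 120 min. Nearest to the Scg3 probe at base 541 were Astn1 (0.227), Chmp1b (0.237) and Nrn1 (0.243).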

How the data were processed

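RNA of PC12 cells was measured on 12 Agilent whole rat genome arrays with 2 colours. The authors extracted the arrays with Agilent's Feature Extraction (12.0.3.1 in the file headers, 11.0.1.1 in the submitters' processing notes). The deposited intensity values are background-subtracted and LOWESS dye-normalized, mean and background intensity values are deposited unnormalized, the deposited p-value belongs to 1 spot's log ratio, and the deposited table holds log10 of Cy5 over Cy3, not turned for the dye exchange. Log2 ratios of processed intensity were turned by dye and averaged over both arrays. The 1639 control spots and 197 to 267 outlier spots per array were left out. Levels are quantile-normalized over 24 channels. All 12 measured member probes had a value on every array. Slopes used limma 3.58.1 in R 4.3.3 with Benjamini-Hochberg adjustment over all probes. A check on simulated data used slopes larger than that of any member, so it does not cover slopes of the size seen here. Tables used Python 3.11.15 with pandas 2.3.3. Alternatives were normexp (offset 50) with loess or median centring, the deposited table, single dyes, other filters, time in minutes, a slide block, 75th percentile scaling and left-out time points. All member probes are named; of a gene's probes the brightest is its value; other pathway genes are named if a rule counted them, and 3 nearest genes per counted member. Members and lists were chosen with earlier results of these data known. Probe positions are the files' own (rn4), whose exon annotation was not used here. Proteome data were not analysed here. Some markers chosen for PC12 cells are not reported here.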

Additional observations from a re-analysis of the deposited data

How the results depend on the processing

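Signal over background limits what can be said of Pcsk1 and Pcsk2, and 1 pool per time point limits every fold. Each fold already pairs a PACAP38 pool with its control on 1 array, and no replicate block was fitted because the labels number no replicates.

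With normexp and median centring the count of member probes past the 2-fold rule was 0 at 60 min (Vgf lost), where 0.266% of all probes were higher. At 120 min it was 1 (Scg2 lost), against 0.437%, and past the 1.5-fold rule 1, against 1.82%. With normexp and loess the 2-fold count was 1 at 120 min (Scg2 lost), against 0.717%. With Agilent's normalization 0.871% of all probes passed the 2-fold rule as higher at 60 min. At 120 min 1.95% passed it and 6.65% passed the 1.5-fold rule. The median log2 fold of the measured member probes was 0.17 at 60 min with normexp and loess, and 0.22 at 60 min and 0.15 at 120 min with median centring. From 1 dye orientation alone it was 0.19 to 0.21 at 60 min and 0.39 to 0.54 at 120 min. Without the member probes in the last 32 rows of the array, an alternative chosen after seeing the data, it was 0.23 at 60 min and 0.53 at 120 min, and since neither of these probes had been counted by either rule, the counts could not change.

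The slope of the fold was called for 107 probes with normexp and loess, 1 with median centring, 5606 with time in minutes, 0 with no filter on dim probes, 976 with both RNAs well above background on all arrays, 0 with the slide as a block, and 77 and 128 with PACAP38 in Cy5 or in Cy3 alone. Leaving out a time point gave 0 to 415. Member probes called were 1 with normexp and loess (Scg3 at base 541, limma adjusted p = 0.0498), 8 with minutes, 2 with both RNAs above background on all arrays (Scg3 at base 541 and Vgf), and 0 to 1 with a time point left out (Vgf without 5 min, limma adjusted p = 0.0463). The slope of the control level was called for 6 probes with the slide block and 1 with minutes, and for 0 with any time point left out, by limma. The slope of the PACAP38 level was called for 0 probes with the slide block, 4909 with minutes, and 0 to 1945 with a time point left out. Member probes called were then 0, 5, and 0 to 3. The cause of these changes was not tested.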
